A study of Mus musculus with 4 samples.

Results

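The BCL2 family decides whether a cell keeps or opens its outer mitochondrial membrane, the step that commits it to apoptosis. The 10 family genes described here are the rows named Bcl2, Bcl2l1, Bcl2l2, Mcl1, Bax, Bak1, Bcl2l11, Bbc3, Bid and Bcl2l14, matched to the table by gene name, and all 10 were found among the 49492 gene rows of the count table. RNA of whole testis from male C57BL/6J mice was sequenced, in 2 libraries with the genotype Spry1 knockdown (shSpry1 in the titles) and 2 with the genotype WT (shControl in the titles), and LPS, a bacterial endotoxin, is the treatment listed for all 4. The age of the mice, the dose and time of LPS, the route of the hairpin and the cells it reached are not stated in the labels. Nor do they tell separate animals from repeat libraries. The p-values here set each difference against a spread between these libraries that was estimated largely over all genes and may be technical. The columns of the table are headed LPS and NC with a number each, and not by the sample titles. NC is taken for the control hairpin and LPS, by elimination, for the knockdown, which is a reading of the names. Should the headings stand for LPS against no LPS, each difference below is one of that contrast. The groups are named by their column headings below.

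Within the family, survival proteins (BCL2, BCL-XL, BCL-W and MCL1) hold the pore-forming effectors BAX and BAK in check, and BH3-only proteins such as BIM, PUMA and BID relieve that block or activate the effectors directly. In the testis this balance sets how many germ cells survive, and male mice that lack Bax or Bcl2l2 are infertile. Whole-testis RNA mixes germ cells of every stage with somatic and immune cells, so fewer cells of a type and less RNA per cell cannot be told apart in any value below.

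The LPS columns totalled 19187627 and 17612342 counts, and the NC columns 22451132 and 21081589. For Spry1, the targeted gene, the LPS columns held 26 and 17 counts and the NC columns 45 and 41 (log2 fold change -0.82 ± 0.28, edgeR Benjamini-Hochberg adjusted p = 0.0212), a call that was absent with DESeq2 (adjusted p = 0.300), without LPS replicate 2 (0.183), NC replicate 1 (0.0952) or NC replicate 2 (0.0653). Counts were compared in edgeR (quasi-likelihood test, Benjamini-Hochberg adjustment over 20855 genes), with an adjusted p under 0.05 as the threshold for a call. Of all genes tested, 15.2% were called higher in the LPS columns and 16.3% lower, 31.5% together. Among all called genes 48.3% were higher, against 62.0% with library size as the only scaling. The labelled tissue was checked by its markers: the 8 elongating spermatid markers summed to 16369.7 and 16024 CPM (counts scaled to the TMM-adjusted library total) in the LPS columns and 23052 and 22201 CPM in the NC columns. The sum of the 8 Sertoli cell markers was 942 and 915 CPM in the LPS columns and 687 and 679 CPM in the NC columns, and that of the 8 Leydig cell markers 452 and 522 CPM and 866 and 906 CPM. Most of the Sertoli cell sum was Clu, at 774 and 765 CPM in the LPS columns and 563 and 557 CPM in the NC columns. Of the 8 Sertoli cell markers 4 were called higher, 0 lower and 4 not. The Leydig cell markers did not move as 1: 5 were called lower, 1 higher (Cyp11a1, log2 fold change 0.26 ± 0.07) and 2 not. Insl3, not called, stood at 196 and 205 CPM in the LPS columns, against 200 and 222 CPM in the NC columns. The part of these marker shifts in the results below was not tested.

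The promoters of Bcl2l14, Mcl1 and Bcl2l2 are shown because these are the called members with the most counts. All 10 members had at least 1 RefSeq start site in build GRCm38.p6, 16 windows in all, each taken as the 250 bases before the start. Those of Bcl2l14 lie at chr6:134396079-134396328 and chr6:134414178-134414427, that of Mcl1 at chr3:95658471-95658720 and that of Bcl2l2 at chr14:54883175-54883424, all on the plus strand. Capitals mark matches on either strand to a CCAAT box (CCAAT) in Bcl2l14 and to a GC box (GGGCGG) in Mcl1 and Bcl2l2.
Bcl2l14, upstream start: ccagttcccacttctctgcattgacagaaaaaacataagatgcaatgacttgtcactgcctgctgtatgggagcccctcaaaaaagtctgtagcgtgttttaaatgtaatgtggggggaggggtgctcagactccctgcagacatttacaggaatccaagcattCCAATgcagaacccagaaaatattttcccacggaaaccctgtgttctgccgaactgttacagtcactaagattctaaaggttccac
Bcl2l14, downstream start: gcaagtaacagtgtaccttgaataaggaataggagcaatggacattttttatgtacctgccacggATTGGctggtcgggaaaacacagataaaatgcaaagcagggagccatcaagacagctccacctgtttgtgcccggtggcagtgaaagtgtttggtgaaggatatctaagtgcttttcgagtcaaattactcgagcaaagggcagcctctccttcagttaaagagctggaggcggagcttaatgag
Mcl1: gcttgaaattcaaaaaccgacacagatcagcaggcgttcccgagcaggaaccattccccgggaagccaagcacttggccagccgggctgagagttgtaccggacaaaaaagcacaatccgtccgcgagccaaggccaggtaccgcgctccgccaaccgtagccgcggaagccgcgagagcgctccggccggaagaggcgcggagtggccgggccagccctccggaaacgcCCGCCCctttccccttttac
Bcl2l2: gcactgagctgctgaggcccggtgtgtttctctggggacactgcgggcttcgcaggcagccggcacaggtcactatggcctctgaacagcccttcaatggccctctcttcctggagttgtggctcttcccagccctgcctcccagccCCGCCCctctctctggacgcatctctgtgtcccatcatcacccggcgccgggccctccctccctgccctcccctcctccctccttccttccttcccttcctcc

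A GC box was found in 10 of the 16 member windows, in 7 of the 10 members, and in 32.7% of all 32851 windows. Bcl2l1, Bak1 and Bcl2l14 had none. The Bcl2l14 windows were 45.6% and 46.8% G or C, the Mcl1 window 64.4% and the Bcl2l2 window 66.0%, around a median of 52.4% over all windows. The CCAAT box was in 5 of the 16 member windows, in 3 of the 10 members, and in 33.8% of all windows. The cyclic AMP response element (TGACGTCA) and the TATA box (TATAAA) were in none of the 16 windows, and in 1.55% and 12.4% of all windows. The NF-kB motif was in 1 of the 3 windows of Bcl2l1 and in 1 of the 3 of Bbc3, there at 2 overlapping positions, and in 7.25% of all windows. Neither Bcl2l1 nor Bbc3 was called.

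Levels of the members differed widely. Per kilobase of exon (RPKM, with the table's gene lengths), Bcl2l14, which encodes BCL-G, stood above the rest at 85.0 and 87.1 RPKM in the LPS columns and 104 and 97.7 RPKM in the NC columns. It made up 64.4 and 64.8 percent of the summed RPKM of the 10 members in the LPS columns and 70.4 and 68.7 percent in the NC columns, and its mean level was at percentile 96.3 of the genes tested. Bcl2l1 and Mcl1 followed, then Bax, Bak1, Bcl2l2 and Bcl2l11. Bcl2, the founding member, came last at 0.0665 and 0.135 RPKM in the LPS columns and 0.0298 and 0.0479 RPKM in the NC columns. The order was the same in both groups except that Bid stood above Bbc3 in the LPS columns and below it in the NC columns. Bbc3 and Bid in the NC columns were also the only neighbours whose libraries overlapped.

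**Figure D1:**
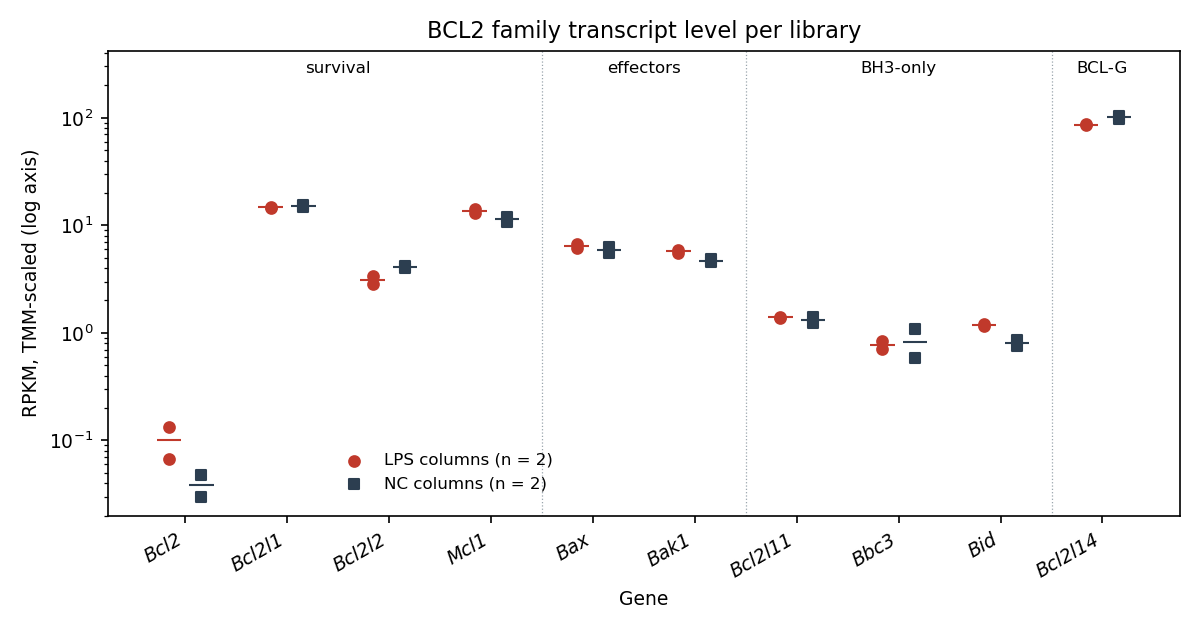
RPKM of the 10 members, 1 point per library and a bar at each mean, on a log axis, for the LPS and the NC columns (n = 2 each). Bcl2l14 lies highest, with means of 86.0 RPKM (LPS) and 101 RPKM (NC), and Bcl2 lowest, with 0.101 and 0.0388 RPKM.

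Of the 10 members, all tested, 4 were called higher in the LPS columns (Bcl2, Mcl1, Bak1 and Bid), where 15.2% of all genes were, and 2 lower (Bcl2l2 and Bcl2l14), where 16.3% were. The libraries of both groups did not overlap for 6 members, the same 6 that were called, and for 64.1% of all genes tested. The median log2 fold change was 0.10 over the members and 0.00 over all genes tested. Bcl2 was the only member outside the range from the 5th to the 95th percentile of all genes, -0.77 to 0.79 on the log2 scale. DESeq2 (Benjamini-Hochberg adjustment) called 0 members higher (1 at an unadjusted p under 0.05) and 1 lower, Bcl2l14, where it called 6.31% of genes higher and 8.04% lower. Leaving LPS replicate 2 out of edgeR's fit also left 0 members higher (2 at an unadjusted p under 0.05) and Bcl2l14 alone lower.

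**Figure D2:**
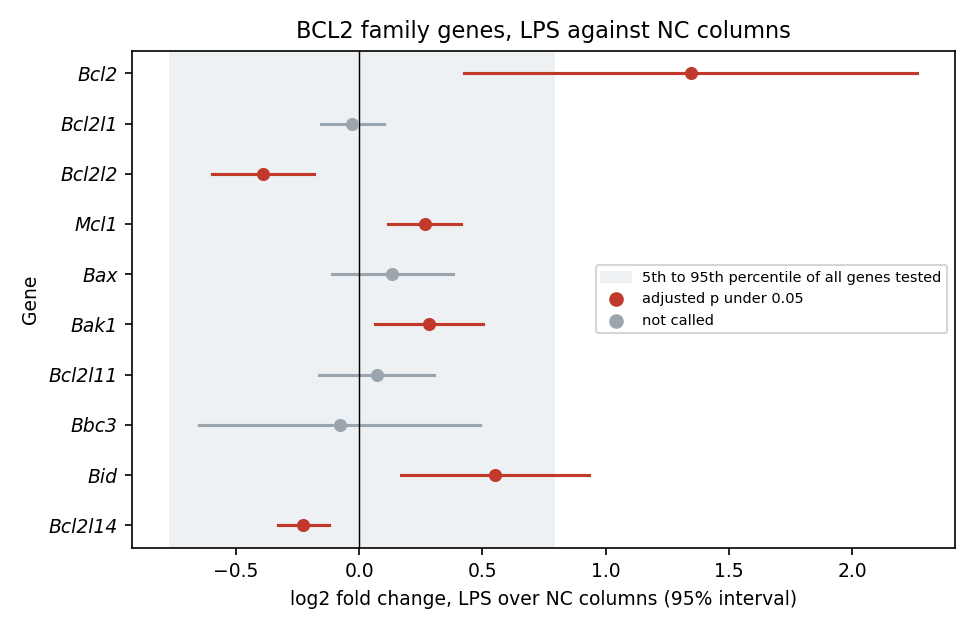
Log2 fold change of each member, LPS over NC columns, with its 95% interval from edgeR's fit, coloured by call. The shaded band holds the middle 90% of all genes tested, and only Bcl2, at 1.35, has its point outside it.

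Among the survival genes, Mcl1 and Bcl2 rose, Bcl2l2 fell and Bcl2l1 was not called. Mcl1 (chr3:95658788-95663176, plus strand, mm10) encodes a short-lived protein that restrains BAK. In the LPS columns it stood at 44.9 and 48.7 CPM, and in the NC columns at 36.9 and 41.0 CPM. Both LPS libraries lay above both NC libraries, by less than the gap between the NC libraries. The log2 fold change was 0.27 ± 0.07 (SE), or 1.20-fold (edgeR, Benjamini-Hochberg adjusted p = 0.00478). No call was made with DESeq2 (adjusted p = 0.0702), without LPS replicate 2 (0.0705) or NC replicate 1 (0.115).

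Bcl2l2 (chr14:54883377-54888234, plus strand) encodes BCL-W, the survival protein that mouse spermatogenesis depends on. Its level was 15.2 and 12.6 CPM in the LPS columns, against 18.5 and 17.9 CPM in the NC columns. Both LPS libraries were lower, with more spread between them than in the NC pair. It fell by 0.39 ± 0.10 on the log2 scale, to 0.763 of the NC level (edgeR, Benjamini-Hochberg adjusted p = 0.00314). It was not called with DESeq2 (adjusted p = 0.0865) or without LPS replicate 2 (0.105), where its log2 fold change was -0.26. Bcl2l2 shares 594 exon bases, 13.3% of its exon length, with the same-strand model Gm20521, which held 2858 and 2115 counts in LPS libraries, against 3412 and 2818 in NC libraries, and was not called (log2 fold change -0.15 ± 0.07). Reads over the shared bases cannot be told apart between the models.

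Bcl2l1 (chr2:152780668-152831728, minus strand) encodes BCL-XL and was the most abundant survival transcript. It measured 67.2 and 68.0 CPM in the LPS columns, against 67.5 and 70.3 CPM in the NC columns, and the groups overlapped. Its log2 fold change was -0.03 with a 95% interval of -0.15 to 0.10, the narrowest among the 4 members not called (edgeR, Benjamini-Hochberg adjusted p = 0.786). Its share of the summed RPKM of the 4 survival genes was 46.9% and 46.3% in the LPS columns and 49.6% and 48.8% in the NC columns. For Mcl1 that share was 42.0% and 44.4% in the LPS columns, against 36.3% and 38.2% in the NC columns. The RPKM ratio of Bcl2l1 to Mcl1 was accordingly 1.12 and 1.04 in the LPS columns and 1.37 and 1.28 in the NC columns, without overlap.

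Bcl2 itself (chr1:106538178-106714274, minus strand) rested on few reads, 12 and 22 counts in LPS libraries, against 6 and 9 in NC libraries. Both LPS libraries were higher, LPS replicate 2 by the wider margin. The log2 fold change was 1.35 ± 0.45, with a 95% interval of 0.43 to 2.27 (edgeR, Benjamini-Hochberg adjusted p = 0.0209). It was not called with DESeq2 (adjusted p = 0.289), without LPS replicate 2 (0.443) or NC replicate 1 (0.217), and leaving out those libraries gave log2 fold changes of 0.78 (LPS replicate 2) and 1.05 (NC replicate 1). Bcl2 shares 558 exon bases, 6.09% of its exon length, with the opposite-strand gene D630008O14Rik, which had 1 and 4 counts in LPS libraries, against 1 and 1 in NC libraries.

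The effectors BAX and BAK assemble into the pore in the mitochondrial membrane. Bak1 (chr17:27019810-27029009, minus strand) was measured at 13.3 and 14.2 CPM in the LPS columns, against 11.6 and 10.9 CPM in the NC columns. The groups did not overlap, and the log2 fold change of 0.28 ± 0.11, or 1.22-fold, passed narrowly (edgeR, Benjamini-Hochberg adjusted p = 0.0418). The Bak1 call was lost with DESeq2 (adjusted p = 0.322), with no filter on low counts (0.0593), without LPS replicate 1 (0.0503), LPS replicate 2 (0.202), NC replicate 1 (0.0631) or NC replicate 2 (0.199), so the call needed all 4 libraries. Bak1 shares 357 exon bases, 14.8% of its exon length, with the opposite-strand gene Ggnbp1. Ggnbp1 held 17620 and 16600 counts in LPS libraries, against 17168 and 16691 in NC libraries, far more than Bak1, and was itself called higher (log2 fold change 0.19 ± 0.05, edgeR adjusted p = 0.00266).

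Bax (chr7:45461697-45466898, minus strand) had 10.6 and 9.74 CPM in the LPS columns, against 9.86 and 8.63 CPM in the NC columns, and the groups overlapped. Its log2 fold change was 0.13 with a 95% interval of -0.11 to 0.38 (edgeR, Benjamini-Hochberg adjusted p = 0.435). A true ratio from 0.926 to 1.30 of the NC level was thus compatible with these libraries. Bax shares 192 exon bases, 12.2% of its exon length, with the same-strand model RP23-218K15.5, which held about as many counts as Bax, 208 and 170 in LPS libraries, against 230 and 171 in NC libraries.

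BH3-only genes sense stress and start the pathway. Of the 3 among the members 1 was called, where 31.5% of all genes tested were. Bad, Bik, Bmf and Pmaip1, BH3-only genes outside the members, were tested and not called. Bid (chr6:120891930-120916853, minus strand) encodes a protein that caspase-8 cleaves, which links death receptors to mitochondria. Its 84 and 74 counts in LPS libraries made 4.26 and 4.14 CPM, against 67 and 55 counts and 3.04 and 2.68 CPM in NC libraries. Both LPS libraries were higher and lay close together. The log2 fold change was 0.55 ± 0.19, or 1.47-fold (edgeR, Benjamini-Hochberg adjusted p = 0.0233). The call was absent with DESeq2 (adjusted p = 0.288), without LPS replicate 1 (0.0805), LPS replicate 2 (0.0507) or NC replicate 2 (0.134). Bid shares 628 exon bases, 17.7% of its exon length, with the opposite-strand family gene Bcl2l13, which held 840 and 773 counts in LPS libraries, against 888 and 766 in NC libraries, and was not called (log2 fold change 0.14 ± 0.07).

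Bcl2l11 (chr2:128126038-128162547, plus strand), which encodes BIM, stood at 11.3 and 11.1 CPM in the LPS columns, against 11.4 and 9.89 CPM in the NC columns. The LPS values lay within the NC range, and the log2 fold change was 0.07 with a 95% interval of -0.16 to 0.30 (edgeR, Benjamini-Hochberg adjusted p = 0.692). Bbc3 (chr7:16308393-16318205, plus strand), which encodes PUMA and is a target of p53, held 35 and 27 counts in LPS libraries, against 27 and 47 in NC libraries. The NC libraries enclosed the LPS libraries, and the 95% interval of -0.65 to 0.49 on the log2 scale was the widest of the members not called (edgeR, Benjamini-Hochberg adjusted p = 0.866).

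Bcl2l14 (chr6:134396318-134438736, plus strand), the most abundant member, fell. In the LPS columns it stood at 348 and 356 CPM, and in the NC columns at 424 and 399.98 CPM. These values came from 6859 and 6365 counts in LPS libraries, against 9333 and 8208 in NC libraries, the deepest of the 10 members. The groups were further apart than the libraries within either. It fell by 0.23 ± 0.05 on the log2 scale, to 0.855 of the NC level (edgeR, Benjamini-Hochberg adjusted p = 0.000770). It was the only member called in all 9 alternatives, with log2 fold changes of -0.27 to -0.16 and adjusted p of 3.56e-05 to 0.0315 (edgeR and DESeq2).

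Elongating spermatid markers and most round spermatid markers fell beside Bcl2l14 and Bcl2l2. Over all genes tested, 15.2% were called higher and 16.3% lower. Of the 8 elongating spermatid markers 6 were called lower, and all 8 log2 fold changes were negative, -0.69 to -0.05 with a median of -0.29. Of the 7 round spermatid markers 4 were called lower and 1 higher, with a median log2 fold change of -0.16. Their sum overlapped between the groups, at 1144 and 1093 CPM in the LPS columns, against 1119 and 1131 CPM in the NC columns. Its largest part was Spaca1, the marker called higher, at 502 and 461 CPM in the LPS columns, against 398 and 404 CPM in the NC columns. The part of these spermatid markers in the fall of both members was not tested. Bcl2l14 also shares 577 exon bases, 14.1% of its exon length, with the opposite-strand model Gm44293, which held 622 and 546 counts in LPS libraries, against 837 and 625 in NC libraries, and was not called (log2 fold change -0.14 ± 0.08).

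**Figure D3:**
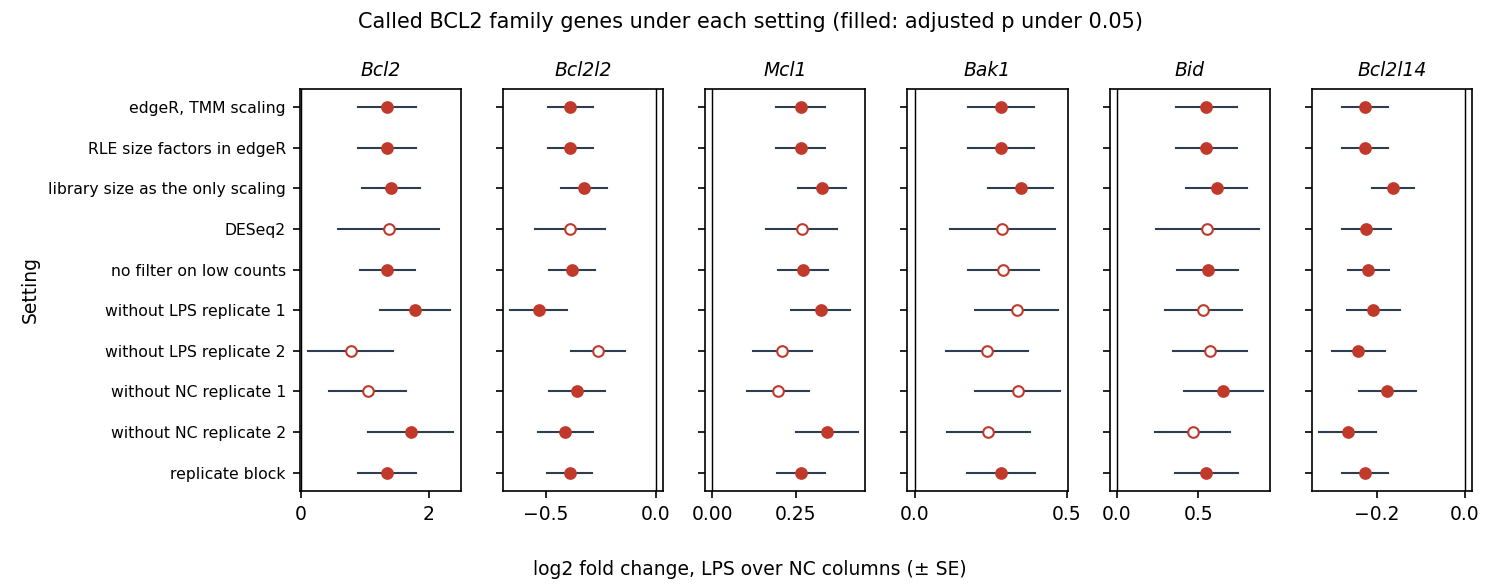
Log2 fold change, LPS over NC columns, of the 6 called members under edgeR with TMM scaling and under the 9 alternatives, with bars of 1 SE and filled points where the adjusted p was under 0.05. Bcl2l14 is filled throughout, and Bak1 is open in 6 of the 9 alternatives.

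The balance between classes was described by ratios of RPKM within each library and was not tested. Bax and Bak1 summed over the 4 survival genes gave 0.391 and 0.377 in the LPS columns and 0.374 and 0.319 in the NC columns, values that did not overlap but nearly met. The BH3-only genes Bcl2l11, Bbc3 and Bid over the survival genes gave 0.110 and 0.102 in the LPS columns, against 0.0960 and 0.0977 in the NC columns. Those BH3-only genes summed to 3.44 and 3.26 RPKM in the LPS columns, against 2.85 and 3.07 RPKM in the NC columns. Bad, a BH3-only gene outside the members, stood far higher, at 28.8 and 28.8 RPKM (LPS) and 27.0 and 28.4 RPKM (NC). The ratio leaves Bad out and so does not describe the whole class. The 4 survival genes themselves summed to 31.2 and 32.0 RPKM in the LPS columns and 29.7 and 31.4 RPKM in the NC columns, which overlapped. This sum and both ratios leave out the Bcl2a1 genes, survival genes outside the members. Bcl2a1b stood at 1.30 and 1.03 RPKM (LPS) and 0 and 0.0596 RPKM (NC). Bcl2a1d stood at 1.06 and 0.843 RPKM (LPS) and 0 and 0.169 RPKM (NC), and Bcl2a1a at 0.805 and 0.547 RPKM (LPS) and 0 and 0.119 RPKM (NC). Overlap between the groups is stated for the 4 genes only and was not computed with the Bcl2a1 genes included. The ratio of Bax to Bcl2, a common index of apoptosis, was 101 and 46.0 in the LPS columns and 210.1 and 114 in the NC columns, and rests on the few Bcl2 reads given above.

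Of the 17 other BCL2 family genes listed, 14 could be tested, with a median log2 fold change of 0.03. Among these, 3 were called higher, 1 lower and 10 not, where 15.2% of all genes were called higher and 16.3% lower. The largest differences were in the Bcl2a1 genes, which encode A1, a survival protein of myeloid cells and a known NF-kB target. Bcl2a1b held 21 and 15 counts in LPS libraries, against 0 and 1 in NC libraries, a ratio of summed scaled counts of 40.7 (counting interval 6.86 to 1654). Its fitted log2 fold change was 5.02 ± 0.75 (edgeR, Benjamini-Hochberg adjusted p = 1.82e-06). Bcl2a1d held 18 and 13 in LPS libraries, against 0 and 3 in NC libraries, a ratio of 11.7 (counting interval 3.65 to 59.8), with 3.44 ± 0.66 as the fitted log2 value (edgeR adjusted p = 9.45e-05). Bcl2a1a, too low to be tested, held 13 and 8 in LPS libraries, against 0 and 2 in NC libraries. All 3 were higher in both LPS libraries. Both tested copies were called in all 9 alternatives, but the size of the change moved with the NC library kept. Without NC replicate 1, the fitted log2 fold change was 4.13 for Bcl2a1b and 2.45 for Bcl2a1d. Without NC replicate 2, which leaves the NC side at 0 counts, it was 7.26 for Bcl2a1b and 7.04 for Bcl2a1d, fitted values that depend on the prior count and are no bound.

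These copies cannot be separated with confidence, since their transcripts are 98.2% to 99.1% identical, and Bcl2a1b shares 401 exon bases, 49.1% of its exon length, with the same-strand model Gm29094. Summed, the copies held 52 and 36 counts in LPS libraries, against 0 and 6 in NC libraries, 16.6-fold with a counting interval from 7.33 to 46.5. The NF-kB motif, present in 7.25% of all promoter windows, was found in none of the windows of these copies. Their promoter windows share an unbroken stretch of 84 bases, shown because it makes the likeness of the copies visible. In GRCm38.p6 it lies at chr9:88956733-88956816 (plus strand) for Bcl2a1a, chr9:89199042-89199125 (plus strand) for Bcl2a1b and chr9:88731948-88732031 (minus strand) for Bcl2a1d, and nothing is marked in it.
Bcl2a1a, Bcl2a1b and Bcl2a1d: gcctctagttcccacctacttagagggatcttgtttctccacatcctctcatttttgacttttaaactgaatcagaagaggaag

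Myeloid markers differed beside the Bcl2a1 genes. The 10 macrophage and monocyte markers summed to 65.0 and 71.2 CPM in the LPS columns and 52.3 and 56.7 CPM in the NC columns. Of the 9 tested, 4 were called higher, Itgam and Adgre1 among them, and 4 lower, Csf1r among them. The shares over all genes were 15.2% higher and 16.3% lower. Itgam held 197 and 211 counts in LPS libraries, against 42 and 30 in NC libraries. The 8 neutrophil markers summed to 4.06 and 4.59 CPM in the LPS columns and 1.45 and 1.80 CPM in the NC columns. Only 3 of these 8 had enough counts to be tested. S100a9 and Mpo were called higher, and Csf3r was not called. S100a9 held 35 and 32 counts in LPS libraries and was at 0 in both NC libraries. Ly6g, not tested, was at 0 in both LPS libraries and held 4 and 6 in NC libraries. The part of these cells in the Bcl2a1 result was not tested.

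The other 2 called genes of this list changed little. Bcl2l12 stood at 24.8 and 25.6 CPM in the LPS columns, against 21.8 and 19.9 CPM in the NC columns (log2 fold change 0.27 ± 0.09, edgeR Benjamini-Hochberg adjusted p = 0.0145). Bcl2l12 was not called with DESeq2 (adjusted p = 0.170), without LPS replicate 2 (0.0803) or NC replicate 2 (0.156). Bnip1 stood at 9.89 and 9.63 CPM in the LPS columns, against 12.0 and 12.7 CPM in the NC columns (log2 fold change -0.34 ± 0.11, edgeR Benjamini-Hochberg adjusted p = 0.0189). Bnip1 was not called with library size as the only scaling (adjusted p = 0.0594), with DESeq2 (0.244), without LPS replicate 1 (0.0506), LPS replicate 2 (0.0847) or NC replicate 2 (0.114). Per length, the BH3-only gene Bad was the highest of the list, at 28.8 and 28.8 RPKM in the LPS columns and 27.0 and 28.4 RPKM in the NC columns, and was not called.

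Downstream of the pore, 4 of 15 tested apoptosome, caspase and mitochondrial release genes were called higher and 0 lower by edgeR (0 at an unadjusted p under 0.05, and 0 by DESeq2). Over all genes tested, edgeR called 15.2% higher and 16.3% lower. DESeq2 called 1 gene of this list higher, and 6.31% of all genes. Xiap, which encodes a caspase inhibitor, stood at 7.81 and 8.46 CPM in the LPS columns, against 4.95 and 5.99 CPM in the NC columns (log2 fold change 0.57 ± 0.14, edgeR Benjamini-Hochberg adjusted p = 0.00200, not called with DESeq2 (adjusted p = 0.0867)). Diablo, whose protein leaves mitochondria to counter XIAP, stood at 227 and 226 CPM in the LPS columns, against 193 and 201 CPM in the NC columns (log2 fold change 0.20 ± 0.05, edgeR adjusted p = 0.00300), and was called in all 9 alternatives. Both XIAP and its antagonist thus had more transcript in the LPS columns. Dffa (0.43 ± 0.15), which encodes the inhibitor of a nuclease of apoptosis, was not called with DESeq2 (adjusted p = 0.282), without LPS replicate 1 (0.0783), LPS replicate 2 (0.0541), NC replicate 1 (0.0884) or NC replicate 2 (0.0679), and Aifm1 (0.24 ± 0.10), which encodes apoptosis-inducing factor, was not called with DESeq2 (adjusted p = 0.325), with no filter on low counts (0.0680), without LPS replicate 1 (0.0999), LPS replicate 2 (0.151) or NC replicate 1 (0.304), all p adjusted in edgeR or DESeq2. Apaf1, which encodes the scaffold of the apoptosome, and Casp9, which encodes the caspase it activates, were not called (log2 fold changes 0.46 ± 0.24 and 0.02 ± 0.15).

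Among 13 mitochondrial membrane partners of BAX and BAK, 1 was called higher, 1 lower and 11 not. The shares over all genes tested were 15.2% higher and 16.3% lower. Mtch1 stood at 14.4 and 12.2 CPM in the LPS columns, against 9.82 and 11.6 CPM in the NC columns (log2 fold change 0.32 ± 0.12, edgeR Benjamini-Hochberg adjusted p = 0.0342). It was not called with DESeq2 (adjusted p = 0.304), without LPS replicate 1 (0.354) or NC replicate 1 (0.308), with log2 fold changes of 0.19 and 0.21 without those libraries. Ppif, which encodes cyclophilin D, stood at 4.46 and 3.19 CPM in the LPS columns, against 6.00 and 4.97 CPM in the NC columns (log2 fold change -0.51 ± 0.18, edgeR adjusted p = 0.0241). It was not called with library size as the only scaling (adjusted p = 0.0588), with DESeq2 (0.282), without LPS replicate 2 (0.288) or NC replicate 1 (0.230), with log2 fold changes of -0.30 and -0.36 without those libraries. Vdac2, which encodes a channel that binds BAK, was not called (log2 fold change 0.05 ± 0.05).

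Of 8 tested death receptor genes upstream of BID, 3 were called higher and 0 lower by edgeR (0 at an unadjusted p under 0.05, and 0 by DESeq2). Over all genes tested, edgeR called 15.2% higher and 16.3% lower. DESeq2 called 0 genes of this list higher, and 6.31% of all genes. Ripk1, a kinase of the receptor complex, stood at 23.5 and 22.9 CPM in the LPS columns, against 18.2 and 19.8 CPM in the NC columns (log2 fold change 0.29 ± 0.09, edgeR Benjamini-Hochberg adjusted p = 0.0111, not called with DESeq2 (adjusted p = 0.154), without LPS replicate 1 (0.0602) or NC replicate 1 (0.130)). Cflar, which encodes the caspase-8 inhibitor FLIP, stood at 9.23 and 10.3 CPM in the LPS columns, against 7.59 and 7.94 CPM in the NC columns (log2 fold change 0.33 ± 0.13, edgeR adjusted p = 0.0421, not called with DESeq2 (adjusted p = 0.342), with no filter on low counts (0.0570), without LPS replicate 2 (0.248), NC replicate 1 (0.165) or NC replicate 2 (0.0784)). Fas, a receptor gene, held 12 and 9 counts in LPS libraries, against 6 and 3 in NC libraries (log2 fold change 1.38 ± 0.54, edgeR adjusted p = 0.0493, not called with DESeq2 (adjusted p = 0.432), with no filter on low counts (0.0749), without LPS replicate 1 (0.276), LPS replicate 2 (0.145), NC replicate 1 (0.130) or NC replicate 2 (0.369)). Casp8, which cleaves BID, was not called (log2 fold change 0.37 ± 0.19).

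Of 15 regulators of BCL2 family genes and proteins, 3 were called higher and 2 lower, where 15.2% and 16.3% of all genes were. The fall was in the dynein light chains, which bind the BH3-only proteins BIM and BMF. Dynll2 stood at 435 and 431 CPM in the LPS columns, against 531 and 526 CPM in the NC columns (log2 fold change -0.29 ± 0.05, edgeR Benjamini-Hochberg adjusted p = 2.21e-05). Dynll1 stood at 345 and 313 CPM in the LPS columns, against 384 and 385 CPM in the NC columns (log2 fold change -0.22 ± 0.05, edgeR adjusted p = 0.00119). Usp9x, a deubiquitinase of MCL1, held 1723 and 1645 counts in LPS libraries, against 1650 and 1571 in NC libraries (log2 fold change 0.24 ± 0.06, edgeR adjusted p = 0.00179). Ddit3, which encodes CHOP, a stress factor that activates Bcl2l11, had a log2 fold change of 0.24 ± 0.06 (edgeR adjusted p = 0.000912), and these 4 genes were called in all 9 alternatives. Mdm2 had a log2 fold change of 0.15 ± 0.05 (edgeR adjusted p = 0.0245) and was not called with DESeq2 (adjusted p = 0.0580), without LPS replicate 2 (0.102), NC replicate 1 (0.0515) or NC replicate 2 (0.138). Trp53, which encodes p53, was not called (log2 fold change 0.14 ± 0.14).

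**Figure D4:**
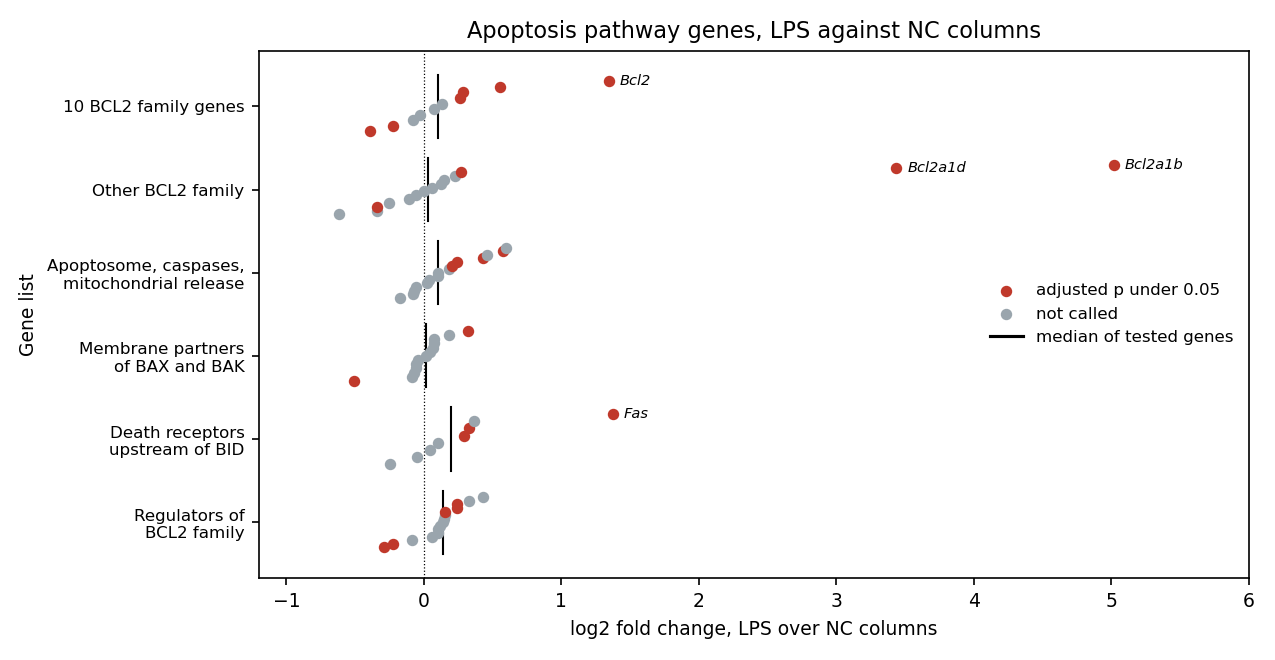
Log2 fold change, LPS over NC columns, of every tested gene of the members and of the 5 other lists, 1 point per gene, coloured by call, with a line at each list's median. Medians run from 0.02 to 0.20, and Bcl2a1b and Bcl2a1d lie furthest to the right.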

How the data were processed

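The deposited values are raw counts per gene beside gene lengths the authors gave, in the layout of a featureCounts table, per the file headers. The libraries came from a stranded mRNA kit, per the labels' protocols. The submitters' processing notes name STAR 2.5.3a, Trimmomatic 0.36, Subread 1.5.1 with featureCounts, DESeq and edgeR 3.12.1, and build mm10, with the annotation release, strand setting and handling of molecular identifiers not given in the sources used here. Of 344 genes lying wholly inside an exon of a same-strand gene with at least 100 counts, 88.7% had counts, as had 83.8% of 160 on the opposite strand, so a read over shared bases may count for each gene.

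Genes were filtered (filterByExpr), scaled by TMM and tested in edgeR 4.0.16 (quasi-likelihood, 2 residual and 34 prior degrees of freedom, Benjamini-Hochberg adjustment over 20855 genes). SE is implied by the F statistic. CPM and RPKM use TMM-scaled library sizes. Counting intervals are exact binomial at 95% and cover counting error only. A library with 0 counts allows at most 0.134 to 0.170 CPM (3 counts over the total counts before TMM scaling). Replicates differed beyond sampling noise, with a chi-square per degree of freedom of 2.31 (LPS) and 2.20 (NC). Alternatives were DESeq2 1.42.0, RLE and library-size scaling, no filter, each library left out and a replicate block, and the fit was checked on simulated data. Transcript identity is from GENCODE release M21 sequences, and promoters are from RefSeq. Named are all members and, in each other list, up to 4 called genes per direction by adjusted p. Other genes were named after their values were seen, for their level, role or overlap. Some listed genes are counted but not reported here by name. Members and lists were chosen with earlier results of these data known.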

Additional observations from a re-analysis of the deposited data

How the results depend on the processing

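The 6 called members kept their direction in all 9 alternatives, and Bcl2l14 alone kept its call in all of them. RLE size factors gave the same counts of called members. A replicate block also gave 4 higher and 2 lower, and 3376 genes higher and 3594 lower over all genes. The replicate numbers were not taken as pairing the libraries. Same-numbered libraries deviated together with a correlation of 0.018. With 2 libraries per group this is a single value, the same for both numbers, and it cannot exclude pairing. DESeq2 called 1367 genes higher and 1743 lower, members 0 higher and 1 lower, other family genes 0 lower (0 at an unadjusted p under 0.05), apoptosome genes 1 higher, membrane partners 0 higher and 0 lower (0 and 0 unadjusted) and death receptor genes 0 higher (1 unadjusted). With library size as the only scaling in edgeR, other family genes counted 5 higher and 0 lower (1 at an unadjusted p under 0.05), membrane partners 0 lower (1 unadjusted) and regulators 6 higher. With no filter on low counts, death receptor genes counted 1 higher. Leaving out each library in turn gave 2255 to 2730 genes higher and 2425 to 2962 lower over all genes. It gave 0 to 2 members higher and 1 to 2 lower, the 0 being without LPS replicate 2 (2 at an unadjusted p under 0.05 in edgeR). Other family genes then counted 0 to 1 lower, apoptosome genes 2 to 3 higher, membrane partners 0 to 1 higher and 0 to 1 lower, death receptor genes 0 to 1 higher and regulators 2 to 4 higher. Apart from the fewer libraries in these last fits, the cause was not tested. Depth limits Spry1, Bcl2, Bbc3, Bik, Bmf, Apaf1, Fas and the Bcl2a1 genes, among others, with under 50 counts in every library.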

Other observations

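Some mitochondrial proteins that act with the family have germ-cell forms, and their transcript levels were compared per length. Cyct, the testis form of cytochrome c, stood at 86.8 ± 6.47 RPKM in the LPS columns and 81.0 ± 3.24 RPKM in the NC columns (SD, n = 2 per group). Cycs, the somatic form, stood at 7.75 and 7.93 RPKM in the LPS columns and 6.65 and 7.16 RPKM in the NC columns, and neither gene was called. Among the adenine nucleotide carriers the germ-cell form was not the highest. Slc25a31, the germ-cell form, stood at 4.42 ± 0.258 RPKM in the LPS columns and 4.19 ± 0.199 RPKM in the NC columns. Slc25a4 stood at 11.5 ± 1.46 RPKM in the LPS columns and 10.9 ± 0.463 RPKM in the NC columns, and neither carrier gene was called. Among the voltage-dependent channels, Vdac2 stood at 38.1 ± 0.486 RPKM in the LPS columns and 36.9 ± 1.62 RPKM in the NC columns. Vdac1 stood at 6.00 ± 0.0551 RPKM in the LPS columns and 5.71 ± 0.442 RPKM in the NC columns, and neither channel gene was called.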
